A study of Homo sapiens and Mus musculus with 24 samples.

Results

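The messenger RNAs of the translation initiation factors were followed through UV irradiation of 4 cell types. The set held the protein-coding genes whose symbols begin with EIF1 to EIF6, without regard to case and without antisense or pseudogene names, and comprised 111 genes, 56 human and 55 mouse, of the 112096 genes listed for both species. Of the symbols, 50 occurred in both species, 6 in human alone and 5 in mouse alone. Cells were either irradiated once with short-wave UV (UPA-seq) or left nonirradiated (RNA-seq), and RNA was then recovered by phenol-chloroform extraction, in which RNA crosslinked to protein leaves the aqueous phase. Each group had 3 replicates, giving 24 samples: HepG2, a human hepatocellular carcinoma line; HEK293, a human embryonic kidney line; Neuro2a, a mouse neuroblastoma line; and HippCulture, a primary culture of hippocampal neurons from mouse embryos at E16.5. The hippocampal cultures came from C57/BL6NCr mice and were all treated with AraC after plating, a step meant to remove glial cells, while no allele is named for any group. Each line stands for a single cell line, and the sources used here do not say whether embryos were pooled. The question for each gene was whether its reads from the recovered RNA rose or fell upon irradiation relative to the bulk of genes tested. The paper also proposes that bonds made by UV hinder reverse transcription. Fewer reads can thus come from less recovered RNA or from less cDNA made of it, and the part of each was not tested.

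Initiation factors bring the ribosome, the initiator tRNA and the mRNA together. eIF4F (the cap-binding eIF4E, the scaffold eIF4G and the helicase eIF4A) prepares the capped mRNA, eIF3 bridges it to the small ribosomal subunit, eIF2 carries the initiator tRNA as a complex with GTP, and eIF2B recharges eIF2. Cells slow initiation mainly by phosphorylating eIF2, which blocks eIF2B, and by 4E-binding proteins, which hold eIF4E away from eIF4G. Many mRNAs of the translation machinery start with a C followed by a run of pyrimidines, a feature called a 5′ terminal oligopyrimidine tract.

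The first transcribed bases are shown for 8 human members, since this tract is read at the start of the RNA. Each line gives 15 bases before the RefSeq start in lower case and 15 bases from that start in capitals, 5′ to 3′ along the gene, in the GRCh38.p14 assembly. The first 5 genes hold the tract and the last 3 do not, and the genes were picked with their changes upon UV known.
EIF3K: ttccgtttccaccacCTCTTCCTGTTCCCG
EIF3F: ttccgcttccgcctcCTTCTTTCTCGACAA
EIF3M: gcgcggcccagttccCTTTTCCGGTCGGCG
EIF3D: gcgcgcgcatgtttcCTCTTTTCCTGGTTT
EIF2S3: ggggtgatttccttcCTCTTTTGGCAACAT
EIF4EBP2: ctcccgccttcgcccGCTTCCGGTCGTCGT
EIF5A2: cccgccccgtctcttGGAACTGCCGCGGCC
EIF2AK2: gtccaaggggaaaacGAAACTGAGAACCAG
In the order printed, the windows lie at chr19:38619173-38619202 (plus strand), chr11:7987322-7987351 (plus), chr11:32583816-32583845 (plus), chr22:36529152-36529181 (minus), chrX:24054941-24054970 (plus), chr10:70404130-70404159 (plus), chr3:170908623-170908652 (minus) and chr2:37156966-37156995 (minus). EIF3K, EIF3F, EIF3M and EIF3D encode eIF3 subunits, EIF2S3 the GTP-binding subunit of eIF2, EIF4EBP2 a 4E-binding protein, EIF5A2 a paralog of eIF5A, and EIF2AK2 the kinase PKR, which responds to double-stranded RNA.

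Libraries of HepG2 held 36573473 to 53511592 counts and those of the other cell types 6910907 to 11188033. Values are given as normalized CPM, library-normalized counts (CPM) scaled by TMM, a method that sets the bulk of genes to no change, so that an increase is an increase relative to the other genes tested. The scaling matters here, because with library sizes alone the median log2 fold change of all genes tested moved down, for HepG2 from -0.080 to -1.39, for HEK293 from -0.077 to -0.84, for Neuro2a from -0.14 to -1.33 and for HippCulture from -0.042 to -0.59. Every marker of the labelled cells reached a mean of 0.5 CPM in nonirradiated samples. These were 8 of 8 for liver in HepG2 and 3 of 3 for HEK293. For Neuro2a they were 5 of 5 for neuroblastoma and for HippCulture 8 of 8 for neurons. In HEK293, NEFM (0.53 to 1.35 CPM) and PAX2 (0.72 to 1.48) lay near that floor. LIN28B stood at 106 to 152 CPM there, but also at 57.7 to 63.05 in HepG2 and 48.1 to 62.55 in Neuro2a. The HEK293 markers alone therefore do not identify that line. Markers of other cells were found too, among them 7 of 8 of glia and microglia (107 to 138 CPM in sum) and 5 of 8 of neurons in HEK293, 5 of 8 of neurons in Neuro2a, 3 of 8 of neurons in HepG2 and 2 of 3 of HEK293 in HippCulture. The hippocampal cultures held 7 of 8 markers of glia and microglia, summing to 569 to 669 CPM without UV and 468 to 606 CPM with UV, and the part of those cells in the values below was not tested. In such bulk samples fewer cells of a type and less RNA per cell cannot be told apart.

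Most initiation factor genes tested were increased upon UV irradiation in HepG2, Neuro2a and HippCulture relative to the bulk of genes. In HEK293 the increased ones were the largest class without pairing of the replicates. In HepG2, 34 of the 51 members tested were increased (66.7%) and 9 decreased (17.6%), beside 38.1% and 40.7% of all genes tested. In HEK293, 24 of 52 were increased (46.2%) and 11 decreased (21.2%), beside 24.2% and 26.4% of all genes. Pairing the HEK293 replicates added 11 calls to these 35 and lost none, with the counts given below. The share of all genes called in that fit is not given. In Neuro2a, 29 of 53 were increased (54.7%) and 13 decreased (24.5%), beside 28.9% and 33% of all genes. In HippCulture, 30 of 53 were increased (56.6%) and 8 decreased (15.1%), beside 26.1% and 25.9% of all genes. Among all protein-coding genes tested, the increased shares were 45.9%, 27.9%, 33.3% and 30.9% in the same order, and the decreased shares 34.2%, 25.8%, 31.5% and 24.9%. Calls are adjusted p-values under 0.05 in edgeR's quasi-likelihood test, adjusted over all genes and measure the spread between these samples. The replicates are described as biological ones, with no account of separate cultures or litters. Of the called members with values shown, the 3 irradiated and 3 nonirradiated samples did not overlap for 42 of HepG2, 35 of HEK293, 42 of Neuro2a and 37 of HippCulture, and overlapped for 1, Eif4ebp1 of HippCulture.

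The median log2 fold change of the members stood at 0.64 for HepG2, 0.42 for HEK293, 0.55 for Neuro2a and 0.27 for HippCulture, beside -0.080, -0.077, -0.14 and -0.042 for all genes and 0.17, 0.011, -0.035 and 0.053 for protein-coding genes. With library sizes alone these medians were -0.67, -0.36, -0.65 and -0.28, so that the direction of the family changed, while it stayed above the all-gene medians given above. That scaling called 8 members increased against 32 decreased for HepG2, 8 against 22 for HEK293, 9 against 35 for Neuro2a and 7 against 19 for HippCulture. Every increased member with values shown (33 for HepG2, 24 for HEK293, 29 for Neuro2a and 30 for HippCulture) then still lay above the all-gene median, although 19, 6, 19 and 8 of them fell below 0. A stricter filter, at least 10 counts in every sample, gave 30 increased and 14 decreased members in HepG2 and 25 and 12 in HippCulture. The shares of all genes called under that scaling and that filter are not given. These counts therefore do not set the members apart from other genes.

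**Figure D1:**
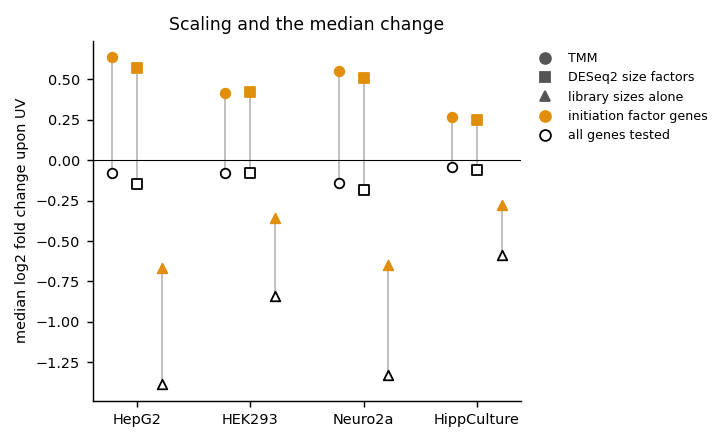
Median log2 fold change upon UV (y axis) of the initiation factor genes (orange) and of all genes tested (open symbols) in each cell type under 3 scalings. The family lies above all genes under each scaling, but its median is above 0 with TMM and with the size factors of DESeq2 and below 0, at -0.28 to -0.67, with library sizes alone.

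**Figure D2:**
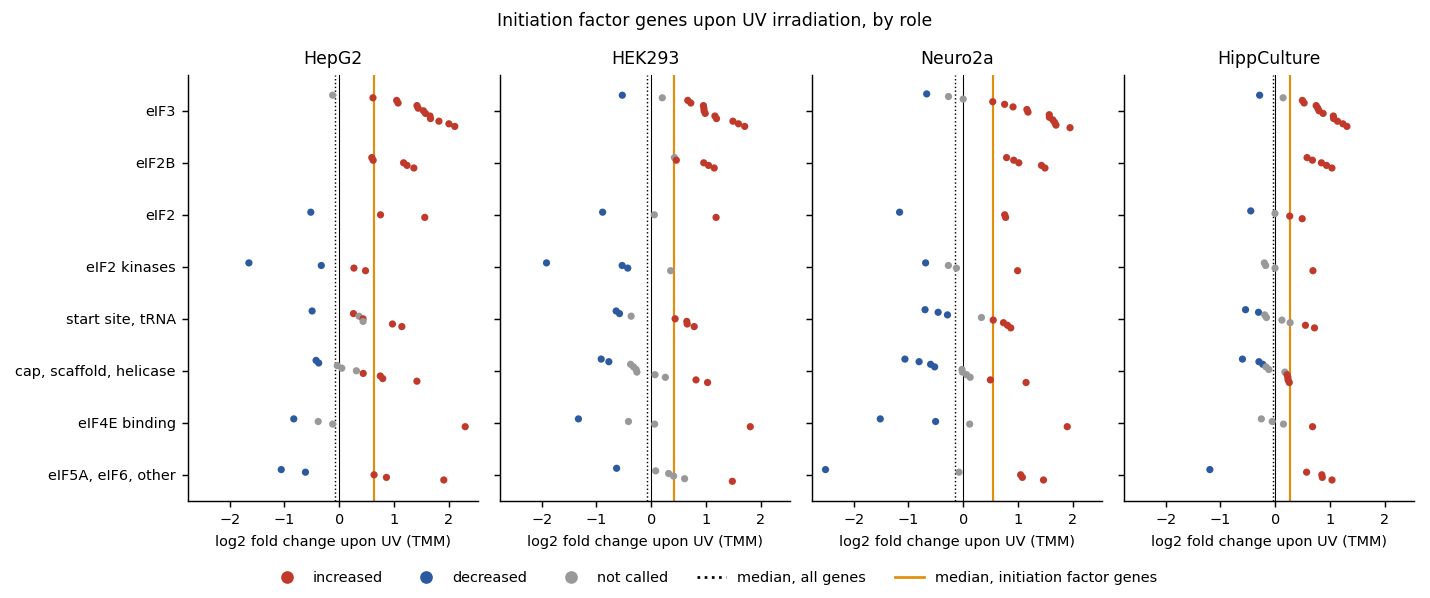
Log2 fold change upon UV with TMM scaling (x axis) of each initiation factor gene tested, by role (rows) in 4 cell types, with 1 Y-linked human gene left out. The eIF3 and eIF2B genes lie mostly to the right of 0 with TMM, and the other roles hold genes on both sides; with library sizes alone 19 of the 33 increased genes shown for HepG2 would lie to the left of 0.

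The genes of eIF3, the large complex that recruits the small ribosomal subunit, were increased almost throughout with TMM scaling. Of the eIF3 genes tested, 12 of 13 were increased in HepG2, 11 of 13 in HEK293, 11 of 14 in Neuro2a and 11 of 13 in HippCulture, and their median log2 fold changes were 1.54, 0.97, 1.17 and 0.80. With library sizes alone, 3 of the 12, 2 of the 11, 5 of the 11 and 2 of the 11 changed direction. EIF3K, which encodes a small subunit, lies at chr19:38619082-38636955 (hg38) and stood at 28.4, 34.04 and 38.8 normalized CPM in the nonirradiated HepG2 samples and 152, 144 and 142 in the irradiated ones. All irradiated HepG2 samples were far above all nonirradiated ones, a log2 fold change of 2.11 ± 0.11 (SE, n = 3 per group, edgeR adjusted p = 4.99e-07). In HEK293 EIF3K rose from 248, 217 and 191 to 789, 618 and 576 normalized CPM (1.595 ± 0.17, edgeR adjusted p = 0.000107). The mouse gene rose from 65.7, 74.3 and 73.5 to 243, 268 and 316 in Neuro2a (1.95 ± 0.11, edgeR adjusted p = 6.19e-09) and from 36.7, 43.6 and 36.1 to 87.4, 106 and 96.7 in HippCulture (1.31 ± 0.097, edgeR adjusted p = 1.11e-09). In none of the 4 cell types did the EIF3K groups overlap, and with library sizes alone its log2 fold change was still 0.80, 0.82, 0.75 and 0.75.

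EIF3G, which encodes an RNA-binding subunit, showed the next largest mean rise among eIF3 genes. It went from 47.03, 60.5 and 61.04 to 231, 229 and 218 normalized CPM in HepG2, 2.01 ± 0.11 on the log2 scale (edgeR adjusted p = 5.2e-07). The log2 fold change was 1.49 in HEK293, 1.64 in Neuro2a and 1.24 in HippCulture, and no groups overlapped. In HEK293 the replicates numbered 1 stood highest in both groups, at 167, 122 and 106 without UV and 498, 324 and 293 with UV. The same held for EIF3I, a subunit made of WD repeats, at 202, 108 and 100.4 and 659.5, 346 and 339, so its rise of 1.71 carried an SE of 0.33 there against 0.073 in HepG2. EIF3H rose by 1.67, 1.17, 1.70 and 1.06 in HepG2, HEK293, Neuro2a and HippCulture.

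EIF3A, the gene of the largest subunit and a scaffold of the complex, moved the other way. It fell from 401, 452 and 404 to 250.3, 309 and 314 normalized CPM in HEK293 (-0.53 ± 0.14, edgeR adjusted p = 0.0123), from 252, 268 and 272 to 164, 168 and 168 in Neuro2a (-0.67 ± 0.088, edgeR adjusted p = 1.58e-05) and from 153, 143 and 144 to 122, 109 and 129 in HippCulture (-0.28 ± 0.083, edgeR adjusted p = 0.00721). In HepG2 its samples overlapped, at 176, 210.5 and 209 without UV and 185, 179.7 and 183 with UV (edgeR adjusted p = 0.225). EIF3J, whose product binds the complex loosely, was increased in HepG2 (0.62 ± 0.065) and not called in HEK293 (0.20, edgeR adjusted p = 0.401, or 0.0213 with the replicates paired). Eif3j1 had log2 fold changes of -0.27 in Neuro2a, where pairing the replicates gave an edgeR adjusted p of 0.0151, and 0.14 in HippCulture, and its reads may be split with those of its copy Eif3j2.

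The genes of eIF2B, the exchange factor of eIF2, were increased in 5 of 5 cases in HepG2, Neuro2a and HippCulture and in 4 of 5 in HEK293. Their median log2 fold changes were 1.18, 1.02, 0.84 and 0.96 in that order, and with library sizes alone 4, 3, 0 and 1 of the increased genes fell below 0. EIF2B4, the gene of the delta subunit, rose from 33.8, 39.99 and 38.5 to 88.5, 88.5 and 88.3 normalized CPM in HepG2, with no overlap. EIF2B1, which encodes the alpha subunit, stood at 73.2, 52.3 and 51.8 in nonirradiated and 102, 68.3 and 67.7 in irradiated HEK293 samples, whose ranges overlapped. Its change of 0.42 ± 0.21 was not called (edgeR adjusted p = 0.114), but was called with the replicates paired (edgeR adjusted p = 6.12e-06).

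The genes of eIF2 itself split by subunit. EIF2S2, the beta subunit, rose from 109, 144 and 141 to 396, 382 and 387 normalized CPM in HepG2 (1.56 ± 0.11, edgeR adjusted p = 2.08e-06), and by 1.19, 0.76 and 0.27 in HEK293, Neuro2a and HippCulture, the last of which was not called without irradiated replicate 1 or 3. EIF2S3, the gamma subunit, fell from 103, 122 and 118 to 82.1, 74.8 and 83.3 in HepG2 (-0.52 ± 0.085, edgeR adjusted p = 0.000453) and from 378, 336 and 388 to 171, 214 and 211 in HEK293 (-0.89 ± 0.14, edgeR adjusted p = 0.00092). Its X-linked mouse counterpart Eif2s3x fell from 131, 115 and 125 to 64.8, 49.6 and 50.9 in Neuro2a (-1.16 ± 0.11, edgeR adjusted p = 8.75e-07) and from 111, 114 and 119 to 91.9, 78.7 and 81.9 in HippCulture (-0.45 ± 0.083, edgeR adjusted p = 0.000141). No groups of EIF2S3 or Eif2s3x overlapped. The Y-linked mouse copy Eif2s3y, tested in HippCulture, stood at 11.4, 10.5 and 11.8 without UV and 13.9, 8.47 and 10.7 with UV, and its samples overlapped. EIF2S1, the alpha subunit that the stress kinases phosphorylate, was increased in HepG2 (0.76), Neuro2a (0.78) and HippCulture (0.49) and at 0.058 ± 0.21 in HEK293 (edgeR adjusted p = 0.839). Scaled by library sizes alone, EIF2S1 was below 0 in HepG2, and Eif2s1 and Eif2s2 were below 0 in both mouse cell types.

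The 4 kinases of eIF2 did not move as a group, with 2 increased against 2 decreased for HepG2, 0 against 3 for HEK293, 1 against 1 for Neuro2a and 1 against 0 for HippCulture. The HEK293 call of EIF2AK4 held in 1 of the 6 fits with 1 library left out, and without nonirradiated replicate 2 or 3 or irradiated replicate 2 the 3 decreased kinases became 1. EIF2AK2 had the largest fall of any member in both human lines. It went from 43.2, 30.7 and 30.99 to 12.1, 10.8 and 10.5 normalized CPM in HepG2 (-1.65 ± 0.14, edgeR adjusted p = 7.66e-06) and from 80.5, 72.04 and 69.7 to 22.5, 19.05 and 17.6 in HEK293 (-1.91 ± 0.14, edgeR adjusted p = 3.62e-05). The highest irradiated sample lay far below the lowest nonirradiated one in each line. The mouse gene overlapped between groups, at 14.3, 15.98 and 20.01 and 12.5, 13.8 and 15.4 in Neuro2a (edgeR adjusted p = 0.151) and 2.81, 3.83 and 3.09 and 3.13, 1.61 and 3.49 in HippCulture (edgeR adjusted p = 0.619). No test compared the species. EIF2AK1, the heme-regulated kinase, was increased in HepG2 (0.48), Neuro2a (0.99) and HippCulture (0.69), falling below 0 in HepG2 and Neuro2a with library sizes alone, and in HEK293 was called with the replicates paired only (0.36, edgeR adjusted p = 0.075 unpaired and 0.000111 paired). EIF2AK3, the kinase PERK of the endoplasmic reticulum, had log2 fold changes of -0.33, -0.53 and -0.69 for HepG2, HEK293 and Neuro2a, all called (the HEK293 call was lost without nonirradiated replicate 2 or 3 or irradiated replicate 2) and was at -0.20 in HippCulture (edgeR adjusted p = 0.151).

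The factors of start-site selection and tRNA delivery also divided. EIF1, which guards the choice of start codon, rose from 57.4, 70.7 and 72.5 to 81.1, 104 and 132 normalized CPM in HEK293 (0.66 ± 0.19, edgeR adjusted p = 0.0174), from 102, 123 and 117 to 163, 209 and 196 in Neuro2a (0.74) and from 69.3, 69.05 and 67.8 to 99.9, 127 and 113 in HippCulture (0.72), with no overlap. In HepG2 the nonirradiated samples read 106, 39.3 and 44.9 and the irradiated ones 77.8, 81.1 and 85.3, so the first nonirradiated sample lay above all others (edgeR adjusted p = 0.324). EIF1 was called in HepG2 without that library, at 0.90 on the log2 scale. Its paralog EIF1B showed the same high first sample, 9.52, 3.83 and 4.33 against 7.12, 8.28 and 8.37 upon UV, and was called in HEK293 (0.65 ± 0.17, edgeR adjusted p = 0.0103) and not in Neuro2a (0.33) or HippCulture (0.12). Scaled by library sizes alone, EIF1 was below 0 in the human lines and Neuro2a, and EIF1B in all 4 cell types. EIF5, which triggers GTP hydrolysis by eIF2, was increased in HepG2 (0.26, edgeR adjusted p = 0.0178) and decreased in Neuro2a (-0.70) and HippCulture (-0.30); the HepG2 call was lost without nonirradiated replicate 2 or irradiated replicate 1 or 3, and its value was -1.05 with library sizes alone. EIF5B, which joins the ribosomal subunits, was decreased in HepG2 (-0.49), HEK293 (-0.58) and Neuro2a (-0.29), and the Neuro2a call was lost without nonirradiated replicate 1 or 3 or irradiated replicate 3.

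The eIF4 genes gave both directions within the same complex. EIF4E, the cap-binding protein, was decreased in all 4 cell types. It fell from 31.8, 43.3 and 43.2 to 28.4, 28.7 and 31.2 normalized CPM in HepG2 (-0.42 ± 0.12, edgeR adjusted p = 0.0105) and from 39.6, 32.01 and 31.6 to 23.9, 19.9 and 16.8 in HEK293 (-0.77 ± 0.17, edgeR adjusted p = 0.00479). The mouse gene fell from 92.02, 91.7 and 93.9 to 48.99, 41.3 and 42.3 in Neuro2a (-1.06 ± 0.098, edgeR adjusted p = 4.56e-07) and from 66.3, 68.1 and 67.99 to 47.9, 41.7 and 43.7 in HippCulture (-0.60 ± 0.087, edgeR adjusted p = 8.26e-06). No groups overlapped. Its homolog EIF4E2, which binds the cap without recruiting eIF4G, was increased in all 4, by 0.80 ± 0.11, 0.82 ± 0.22, 1.15 ± 0.099 and 0.26 ± 0.10 in HepG2, HEK293, Neuro2a and HippCulture (SE, n = 3 per group). The HippCulture call of Eif4e2 was marginal (edgeR adjusted p = 0.0455) and was lost without nonirradiated replicate 2 or irradiated replicate 2 or 3, and under every other scaling, filter and test tried except the replicate block. With library sizes alone EIF4E2 was below 0 in HepG2 and both mouse cell types.

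The helicase EIF4A1 rose from 396, 486 and 479.6 to 1244, 1202 and 1201 normalized CPM in HepG2 (1.42 ± 0.0996, edgeR adjusted p = 2e-06) and from 1154, 979 and 801 to 2269.8, 2010.4 and 1714 in HEK293 (1.03 ± 0.17, edgeR adjusted p = 0.00115), without overlap. In Neuro2a its groups overlapped, at 336, 329 and 310.5 and 328, 329 and 304 (edgeR adjusted p = 0.847), and in HippCulture it was at 0.23 ± 0.081 (edgeR adjusted p = 0.0217), a call lost without nonirradiated replicate 1 or irradiated replicate 3 and a value of -0.32 with library sizes alone. Of the human gene's exon bases, 48.6% are shared with 5 other genes, the largest part with a lncRNA on the same strand, and reads there were counted for each. EIF4A2, a close paralog, passed the test in HippCulture, where it fell from 309.7, 301 and 305 to 267, 238 and 276 (-0.23 ± 0.081, edgeR adjusted p = 0.0241); this call held in 2 of the 6 fits with 1 library left out, those without irradiated replicate 1 or 3. The HEK293 samples of EIF4A2 spread from 249, 491 and 446 without UV to 237, 536 and 473 with UV, with both replicates numbered 1 the lowest. EIF4A3, a helicase of the exon junction complex, was increased in HepG2 (0.86), Neuro2a (1.08) and HippCulture (0.85), below 0 in HepG2 and Neuro2a with library sizes alone, and in HEK293 was at 0.61 ± 0.23 (edgeR adjusted p = 0.0506 unpaired and 1.92e-09 paired).

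Of the scaffolds, EIF4G1 was called in both mouse cell types in opposite directions. Eif4g1 fell from 275, 239 and 249 to 204, 167 and 160.4 in Neuro2a (-0.52 ± 0.11, edgeR adjusted p = 0.000895) and rose from 265, 244 and 266 to 284, 315 and 302 in HippCulture (0.22 ± 0.080, edgeR adjusted p = 0.0286), a rise that was not called without nonirradiated replicate 2 or irradiated replicate 2 or 3 and turned to -0.34 with library sizes alone. In HepG2 the EIF4G1 samples overlapped, at 227, 218 and 223 and 229, 226 and 235, and in HEK293 its change of -0.28 was called with the replicates paired only (edgeR adjusted p = 0.315 unpaired and 0.00154 paired). EIF4G3 was decreased in HepG2 (-0.37), Neuro2a (-0.81) and HippCulture (-0.30) and at -0.38 in HEK293 (edgeR adjusted p = 0.0539 unpaired and 3.88e-05 paired). EIF4G2, which encodes DAP5, a scaffold without the eIF4E-binding site, was called in none of the 4 (log2 fold changes -0.035, -0.32, 0.062 and -0.12; lowest edgeR adjusted p = 0.236), except in HEK293 with the replicates paired (edgeR adjusted p = 0.000476).

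The 4E-binding proteins held a wide contrast between paralogs. EIF4EBP1 rose from 26.3, 29.5 and 29.5 to 144, 142 and 135 normalized CPM in HepG2, the largest rise of a member with values shown there (2.30 ± 0.075, edgeR adjusted p = 2.55e-07). It rose from 57.2, 68.1 and 71.99 to 225, 215 and 253 in HEK293 (1.81 ± 0.15, edgeR adjusted p = 3.87e-05) and from 105, 86.8 and 87.2 to 357, 352 and 334 in Neuro2a (1.90 ± 0.10, edgeR adjusted p = 4.01e-09). These groups were well apart. In HippCulture it went from 10.2, 18.9 and 9.16 to 17.2, 27.8 and 17.6 and the groups overlapped, the second replicate being highest in each (0.68 ± 0.22, edgeR adjusted p = 0.0124, not called without irradiated replicate 2). EIF4EBP2 fell from 64.2, 52.5 and 51.9 to 32.9, 27.98 and 33.9 in HepG2 (-0.83 ± 0.11, edgeR adjusted p = 0.000106), from 71.4, 41.7 and 48.8 to 28.8, 15.3 and 20.6 in HEK293 (-1.33 ± 0.26, edgeR adjusted p = 0.0027) and by 0.50 on the log2 scale in Neuro2a (edgeR adjusted p = 0.0105). Its HippCulture samples overlapped, at 16.8, 12.8 and 17.02 and 15.8, 17.5 and 12.3. EIF4EBP3 had at most 2.96 normalized CPM in any nonirradiated sample, shares 73.4% of its human exon bases with a readthrough gene, and was called in Neuro2a (-1.51 ± 0.56, edgeR adjusted p = 0.0296), a call kept in 3 of the 6 fits with 1 library left out.

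**Figure D3:**
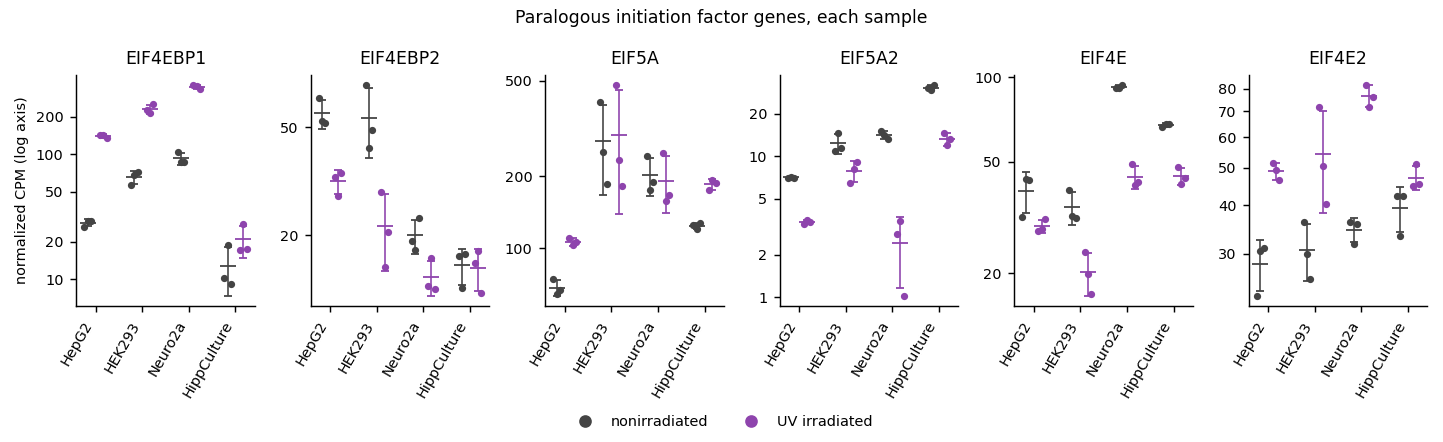
Normalized CPM (log axis, its range set for each gene) in every sample of 6 genes in 4 cell types, human and mouse genes under the human symbol; points are samples and bars the mean ± SD (n = 3), gray without and purple with UV. With TMM scaling EIF4EBP1 and EIF4E2 are increased and EIF5A2 and EIF4E decreased in all 4, and EIF4EBP2 is decreased in all but HippCulture, where its samples overlap. With library sizes alone EIF4E2 is decreased in HepG2 and not called in the other 3, and EIF4EBP1 is increased in all but HippCulture.

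EIF5A, which carries hypusine and acts in elongation, and its paralog EIF5A2 also diverged. EIF5A2, at chr3:170888415-170908693 (hg38), was decreased in all 4 cell types. It fell from 7.04, 7.14 and 7.04 to 3.28, 3.52 and 3.39 normalized CPM in HepG2 (-1.06 ± 0.099, edgeR adjusted p = 1.24e-05) and from 10.8, 14.6 and 11.5 to 6.46, 8.13 and 9.08 in HEK293 (-0.63 ± 0.20, edgeR adjusted p = 0.0264). The mouse gene fell from 15.03, 14.01 and 13.1 to 2.79, 3.495 and 1.03 in Neuro2a, the largest fall of any member there (-2.52 ± 0.25, edgeR adjusted p = 1.11e-06), and from 30.2, 29.5 and 31.9 to 14.7, 11.9 and 13.2 in HippCulture (-1.19 ± 0.12, edgeR adjusted p = 4.36e-08). No groups overlapped, and the HEK293 call was lost without nonirradiated replicate 2 or irradiated replicate 1 or 2. EIF5A rose in HepG2, from 74.2, 64.6 and 66.8 to 111, 103 and 106 (0.64 ± 0.075, edgeR adjusted p = 5.47e-05), and in HippCulture, from 125, 120.1 and 127 to 175, 193 and 187 (0.57 ± 0.078, edgeR adjusted p = 3.74e-06). Under library sizes alone the HepG2 rise turned to -0.67. In HEK293 the EIF5A samples ran from 408, 253 and 185 without UV to 480.3, 233 and 183 with UV, so the spread between replicates exceeded the difference, and in Neuro2a they overlapped as well.

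EIF6, which keeps the large ribosomal subunit from joining early, rose from 96.1, 118 and 120.4 to 429.7, 415 and 412 normalized CPM in HepG2 (1.91 ± 0.099, edgeR adjusted p = 4.45e-07), and by 1.48 ± 0.26, 1.47 ± 0.095 and 1.04 ± 0.11 in HEK293, Neuro2a and HippCulture, always without overlap and also with library sizes alone. EIF1AD, a gene with an eIF1A-like domain, fell from 12.4, 14.5 and 13.8 to 9.97, 8.24 and 8.30 in HepG2 (-0.62 ± 0.11, edgeR adjusted p = 0.000645) and rose from 16.7, 11.7 and 13.04 to 38.4, 23.6 and 23.6 in Neuro2a (1.05 ± 0.19, edgeR adjusted p = 0.000278) and from 15.5, 13.97 and 13.04 to 23.2, 26.02 and 28.05 in HippCulture (0.86 ± 0.12, edgeR adjusted p = 5.28e-06). With library sizes alone the Neuro2a value was -0.14.

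Of the 48 symbols tested in all 4 cell types, 20 were increased in all 4 and 2, EIF5A2 and EIF4E, were decreased in all 4. The same counts over all genes are not given, so whether the members stand out in this was not tested. The 6 with the largest mean rise were EIF3K (1.74 on the log2 scale), EIF4EBP1 (1.67), EIF3G (1.59), EIF3I (1.59), EIF6 (1.48) and EIF3H (1.40). The other 14 were EIF3F, EIF3M, EIF2B4, EIF2B2, EIF3L, EIF3D, EIF2B3, EIF3E, EIF2S2, EIF2D, EIF3B, EIF4E2, EIF2B5 and EIF3C. The HEK293 calls of EIF2B5, EIF3B and EIF3C did not hold when nonirradiated replicate 2 or 3 was left out, nor that of EIF4E2 without nonirradiated replicate 3, and its HippCulture call was lost as given above. Reads of EIF3C cannot be told apart from those of its near-identical copy EIF3CL, and 51.8% of the exon bases of EIF3L and 43.3% of those of Eif3d are shared with other genes, as are 24.2% of EIF4E2 and 23.6% of EIF2B2.

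Whether the effect of UV differed between cell types was tested within each species with an interaction term. Between HepG2 and HEK293, the effect was higher in HepG2 for 2 of 50 members and lower for 1, beside 3.1% and 4.85% of all genes tested. HepG2 was also sequenced on another instrument model than HEK293, to a greater depth, and counted with another featureCounts version. Differences between these lines cannot be told apart from differences in sequencing and counting. EIF1AX, which helps the small subunit scan for the start codon, rose from 36.2, 50.3 and 48.9 to 62.1, 58.9 and 62.4 normalized CPM in HepG2 and fell from 189, 179.9 and 193 to 134, 122 and 105 in HEK293, with no overlap in either line. The effects differed by 0.97 ± 0.19 on the log2 scale (SE, edgeR adjusted p = 0.0059). With at least 10 counts in every sample the HepG2 rise of EIF1AX was not called, and with library sizes alone it turned to -0.87. EIF2AK4, the amino-acid-sensing kinase GCN2, differed by 0.60 ± 0.17 (edgeR adjusted p = 0.0459), a call that 9 of the 12 fits with 1 library left out did not keep. EIF1AD differed by -1.04 ± 0.20 (edgeR adjusted p = 0.00649), and in HEK293 it stood at 13.1, 9.89 and 9.03 without UV and 14.3, 12.7 and 13.1 with UV. With the replicates paired, 14 members had a higher effect in HepG2 instead of 2, and without irradiated HEK293 replicate 1 there were 6. The paired fit also paired HepG2, where numbers were not taken to pair samples. Its share of all genes is not given, so the added calls may not be particular to the members.

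Between Neuro2a and HippCulture, the effect was higher in Neuro2a for 12 of 52 members and lower for 9, beside 8.41% and 16.1% of all genes tested. Eif1ax rose from 159.8, 148 and 150.2 to 299.9, 250.4 and 252 normalized CPM in Neuro2a and fell from 181, 164 and 178 to 129, 106 and 124 in HippCulture, a difference of 1.35 ± 0.14 (edgeR adjusted p = 4.48e-06). Groups overlapped in neither cell type, and the Neuro2a rise turned to -0.38 with library sizes alone. Eif4e2 (0.89 ± 0.15, edgeR adjusted p = 0.000321), Eif4ebp1 (1.21 ± 0.26, adjusted p = 0.00248) and 6 eIF3 genes, among them Eif3h (0.63) and Eif3k (0.64), rose more in Neuro2a. The falls of Eif5a2 (-1.33 ± 0.28, edgeR adjusted p = 0.00227), Eif2s3x (-0.72), Eif4e (-0.47) and Eif4g3 (-0.51) were deeper in Neuro2a, and Eif4g1 (-0.74) and Eif5a (-0.65) differed in the same direction. With library sizes alone 2 members were higher and 21 lower in Neuro2a. With the replicates paired 17 were higher and 12 lower. The added ones were Eif2b4, Eif3d, Eif3e, Eif3g and Eif4h (higher) and Eif3j1, Eif4a1 and Eif5 (lower). That fit also paired HippCulture, where numbers were not taken to pair samples, and its share of all genes is not given. Glial markers were found in HippCulture at the levels given above, after the AraC step, and their part in these differences was not tested.

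**Figure D4:**
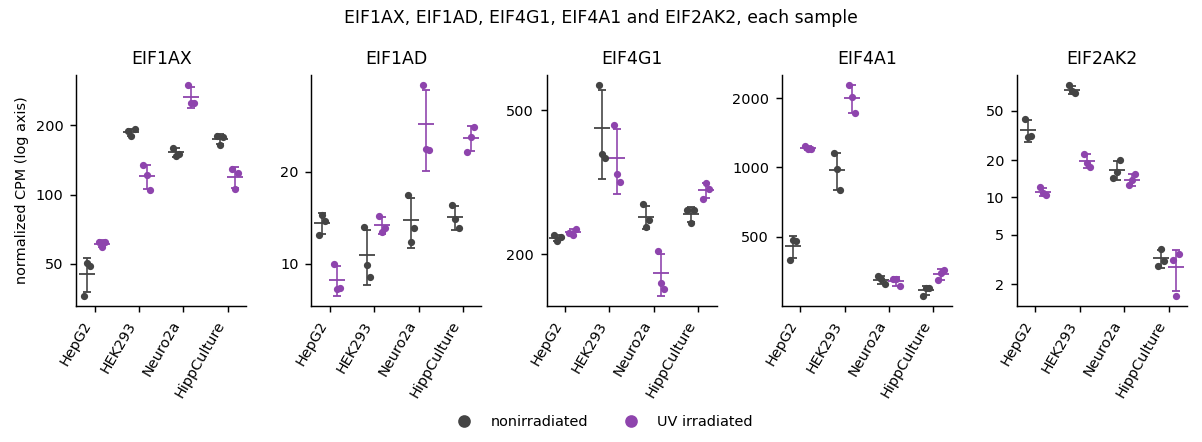
Normalized CPM (log axis, its range set for each gene) in every sample of 5 genes in 4 cell types, human and mouse genes under the human symbol; points are samples and bars the mean ± SD (n = 3), gray without and purple with UV. EIF1AX rises in HepG2 and Neuro2a and falls in HEK293 and HippCulture with TMM scaling, while with library sizes alone it falls in all 4.

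The change was lower for longer transcripts. Spearman's correlation between the log2 fold change and the length of the transcript with the longest coding sequence was -0.49, -0.58, -0.56 and -0.58 over 51, 52, 53 and 53 members in HepG2, HEK293, Neuro2a and HippCulture. Over all protein-coding genes tested it was -0.58, -0.61, -0.59 and -0.55. Genes are not independent replicates, they share libraries and depth, and no test was made. Increased members had a median transcript of 2397 bases in HepG2 against 5534 for decreased ones, and the medians were 1980 against 5538 for HEK293, 1997 against 4991 for Neuro2a and 1920.5 against 5009 for HippCulture. The 3′ UTR of increased members had a median of 556, 419.5, 315 and 459 bases against 2025, 2369, 1872 and 2143 for decreased ones. Its length gave correlations of -0.29, -0.38, -0.44 and -0.50 over the members. Over all protein-coding genes these were -0.46, -0.48, -0.44 and -0.46. Some transcripts used had little or no annotated 3′ UTR, with 0 bases for EIF4G3, Eif4g3 and Eif4a2 and 1 for EIF2B4. That of EIF4E had 130 bases and that of Eif4e 4192. The 3′ UTR medians and correlations therefore depend on the transcript chosen. The coding sequence was less related to the change, with correlations of -0.16, -0.13, -0.11 and -0.082 over the members against -0.40, -0.41, -0.42 and -0.34 over all protein-coding genes. The share of U in the transcript gave correlations of -0.31, -0.44, -0.32 and -0.51 over the members. Over all protein-coding genes they were -0.39, -0.43, -0.38 and -0.46.

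**Figure D5:**
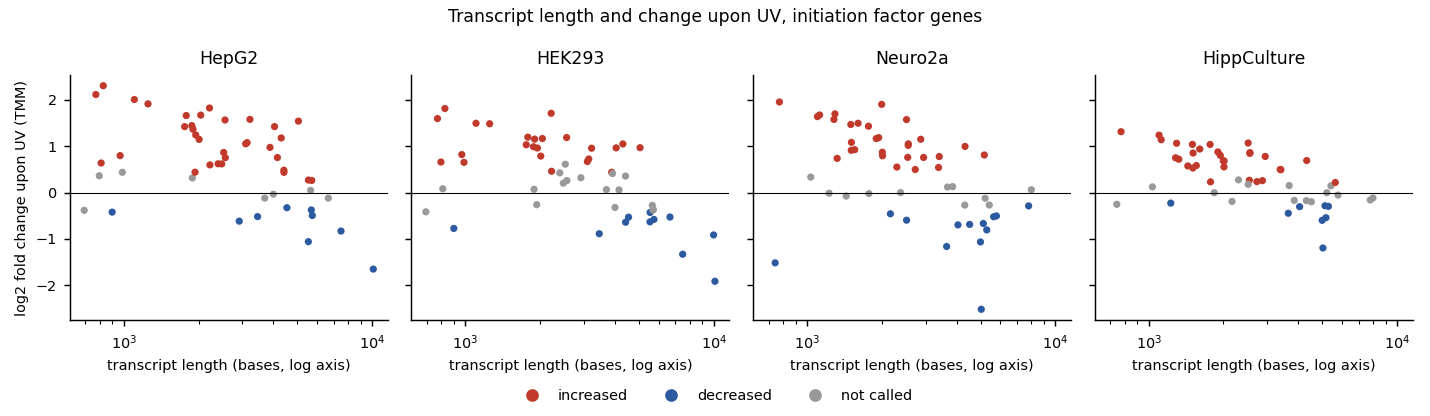
Log2 fold change upon UV with TMM scaling (y axis) against transcript length in bases (x axis, log scale) for each initiation factor gene tested in 4 cell types. Increased genes (red) have a median length of 1920.5 to 2397 bases and decreased genes (blue) of 4991 to 5538 in the 4 panels; library sizes alone would shift all points of a panel down by about the same amount.

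The start tract shown above was found in 10 of 47 human members with a RefSeq entry (21.3%), counting a C at the start followed by 4 bases that are C or T, beside 5.14% of the 27305 human genes with an entry, a gene counting if any of its starts matched. It was present in 4 of 8 eIF3 genes with an entry. Among members increased in HepG2, 7 of 26 held it, against 1 of 9 decreased (EIF2S3) and 1 of 7 not called (EIF4A2). A match describes these letters at an annotated start and is no measurement of where transcription began in these cells.

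Levels without UV, per kilobase of exon, placed EIF4A1 first among the members in HepG2 (85.4 RPKM), HEK293 (184) and HippCulture (67.5) and Eif3h first in Neuro2a (162). EIF5A2 was among the lowest in the human lines, at 1.26 and 2.198 RPKM. EIF2S3B, EIF3CL, EIF4E1B, EIF4E3 and EIF5AL1 were too low to be tested in HepG2, with at most 17 counts in any sample. EIF2S3B, EIF3CL and EIF4E1B were too low in HEK293, with at most 7 counts. Eif2s3y and Eif4e1b were too low in Neuro2a and Eif3j2 and Eif4e1b in HippCulture, with at most 2 counts. A Y-linked human member is in the counts of members tested and called and their medians, but not in the transcript lengths by call or the start tracts, and its level is not given.

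Genes that work beside the initiation factors were counted in the same way, to be read against the shares of all genes given above, such as 38.1% increased and 40.7% decreased in HepG2. Of 26 partners and regulators, such as the kinase MTOR and the helicase DDX3X, 8 were increased against 11 decreased for HepG2, 5 against 10 for HEK293, 6 against 16 for Neuro2a and 5 against 9 for HippCulture. PPP1R15B, a subunit of the phosphatase that acts on eIF2, was at -1.18 ± 0.080 in HepG2 and the mouse gene at -1.78 ± 0.15 in Neuro2a. PPP1R15A went the other way. It was increased in HepG2 (1.22 ± 0.14), HEK293 (0.78 ± 0.20) and Neuro2a (0.49 ± 0.14) and not called in HippCulture (0.16). The median of the partners was -0.21, -0.34, -0.44 and -0.075, beside the all-gene medians above, and -1.51, -1.10, -1.64 and -0.63 with library sizes alone. Of the elongation and release factors, 15 of 17 were increased against 1 decreased for HepG2, and of 18 there were 11 against 1 for HEK293, 11 against 2 for Neuro2a and 11 against 4 for HippCulture, with medians of 1.24, 0.63, 0.82 and 0.51, or -0.066, -0.13, -0.38 and -0.045 with library sizes alone. EEF1B2, an exchange factor of elongation, was at 2.35 ± 0.14 in HepG2, and EEF2K, the kinase that inhibits elongation, at -1.51 ± 0.088, both called.

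Calls rested unevenly on single libraries. In HEK293, 11 members were decreased, but 6 without nonirradiated replicate 2 and 7 without irradiated replicate 2, and in HippCulture 8 were decreased, but 5 without nonirradiated replicate 1. In HepG2, leaving out nonirradiated replicate 1 added EIF1, EIF1B, EIF3A, EIF4A2 and EIF4G2 to the calls and lost none. The HEK293 calls of EIF3A (without nonirradiated replicate 2), EIF5B (without irradiated replicate 2 or 3) and EIF1 (without irradiated replicate 3) were lost, as were those of Eif3a in HippCulture without nonirradiated replicate 1 and Eif4ebp2 in Neuro2a without nonirradiated replicate 3. With the replicates paired in HEK293, 30 members were increased and 16 decreased, and the 35 called before were all kept.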

How the data were processed

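RNA-seq and UPA-seq libraries were made by the submitters with TRIzol extraction (lysates heated at 55 °C for 10 min before chloroform), removal of ribosomal RNA and a TruSeq kit, which the labels give as a stranded one and the methods as another, so strand was treated as not known. The authors mapped reads with TopHat2 2.1.1 to hg38 or mm10 and deposited whole-number read counts per gene from featureCounts (1.5.3 for HepG2, 1.6.1 for the others; GENCODE 28 and M17), in which a read overlapping several genes counted for each and no option for strand or multi-mapped reads was given. Copies and overlapping genes may therefore share reads. Symbols came from GENCODE 44 and M21, which matched 99.00% of human and 99.82% of mouse identifiers. The start windows came from RefSeq.

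Genes with a mean of at least 0.5 CPM in nonirradiated samples of a cell type were tested with edgeR 4.0.16 (quasi-likelihood, TMM, R 4.3.3), irradiated against nonirradiated within each cell type, and with an interaction term between the cell types of a species. P-values were adjusted by Benjamini-Hochberg over all genes tested. A positive log2 fold change means higher upon UV. The procedure was tested on simulated data with few changed genes, equally many up and down, and independent replicates. In these data far more genes were called, so that simulation does not bear on the scaling or the calls given here. The members and gene lists were chosen with earlier results of these data known. The rule for named genes took at most 6 members called in the same direction in all 4 cell types with the largest mean change, the member with the largest rise and fall in each cell type without overlap between groups, 7 paralog sets (EIF1, EIF2S3, EIF4A, EIF4E, EIF4G, EIF5A, EIF4EBP) and the 2 members with the smallest interaction p in each species. Other members given with values, such as EIF3A, EIF2S2, EIF2B1 and the eIF2 kinases, were chosen after their values were seen. Alternatives were DESeq2 1.42.0 and its size factors, library sizes alone, other filters, a replicate block and leaving out each library. Between same-numbered samples the deviations correlated at 0.605 to 0.808 in HEK293 and 0.239 to 0.545 in Neuro2a, so numbers were taken to pair samples there, and at -0.0017 to 0.050 in HepG2 and 0.084 to 0.231 in HippCulture, where they were not. Between differently numbered samples the highest values were 0.435 in HEK293, 0.227 in Neuro2a, 0.040 in HepG2 and 0.0083 in HippCulture. The lowest same-numbered value of Neuro2a thus barely exceeded the others. In HippCulture all same-numbered values lay above the others, so its samples may be paired too. Replicates differed by more than sampling noise in all 24 pairs (chi-square per gene 3.07 to 130.0). Depth limits the members with few counts.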

Additional observations from a re-analysis of the deposited data

Results flagged for a closer look

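The effect of UV differed between the cell types of a species, by the interaction term of edgeR's quasi-likelihood test, for 3 members between HepG2 and HEK293 and for 21 between Neuro2a and HippCulture. In HepG2 4% of members were higher and 2% lower, beside 3.1% and 4.85% of all genes. In Neuro2a 23.1% were higher and 17.3% lower, beside 8.41% and 16.1%. The human shares and the lower share in Neuro2a thus lay near those of all genes. The human lines also differed in sequencer, as given above. Among the named genes the members that differed were EIF1AX (0.97, HepG2 minus HEK293, on the log2 scale) and EIF1AD (-1.04) in the human lines. In the mouse cells, with Neuro2a minus HippCulture, the differences were 1.35 for Eif1ax, 1.21 for Eif4ebp1, 0.89 for Eif4e2, 0.64 for Eif3k, 0.63 for Eif3h, 0.53 for Eif3i and 0.42 for Eif6. They were -1.33 for Eif5a2, -0.74 for Eif4g1, -0.72 for Eif2s3x, -0.65 for Eif5a, -0.51 for Eif4g3 and -0.47 for Eif4e. EIF1AX was higher in the irradiated samples of HepG2 and Neuro2a and lower in those of HEK293 and HippCulture with TMM scaling, and lower in all 4 with library sizes alone.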

How the results depend on the processing

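Of 1114 recomputed values for 93 pairs of a named gene and a cell type, library sizes alone changed most. That scaling also moved the median of all genes tested down in each cell type, as given above. It gave 8, 8, 9 and 7 increased and 32, 22, 35 and 19 decreased members in HepG2, HEK293, Neuro2a and HippCulture, medians of -0.67, -0.36, -0.65 and -0.28, and 0 higher and 4 lower effects for HepG2 against HEK293 and 2 and 21 for Neuro2a against HippCulture. Under it the log2 fold change turned to -0.93 for EIF1, -0.87 for EIF1AX, -0.86 for EIF1B, -0.995 for EIF4A2, -0.44 for EIF4A3, -0.51 for EIF4E2, -1.26 for EIF4G1 and -0.67 for EIF5A in HepG2. In HEK293 it turned to -0.097 for EIF1, -0.44 for EIF1AD, -0.12 for EIF1B, -0.68 for EIF4A2, -0.17 for EIF4A3 and -0.71 for EIF5A. In Neuro2a it turned to -0.46 for Eif1, -0.14 for Eif1ad, -0.38 for Eif1ax, -0.86 for Eif1b, -0.11 for Eif4a3, -0.044 for Eif4e2 and -1.13 for Eif4g2, and in HippCulture to -0.43 for Eif1b, -0.32 for Eif4a1, -0.29 for Eif4e2 and -0.34 for Eif4g1. With at least 10 counts in every sample, 14 members were decreased in HepG2, the medians were 0.36 in HepG2, 0.61 in Neuro2a and 0.19 in HippCulture, 1 member was higher in HepG2 than in HEK293, and EIF4G1 in HepG2 (-0.23), EIF4A2 (-0.047) and EIF5A (-0.015) in HEK293 and Eif4g2 in Neuro2a (-0.073) changed sign, of which EIF4G1 was called decreased (adjusted p = 0.00773). That filter also lost the HepG2 call of EIF1AX. With no filter the Neuro2a median was 0.47, Eif4g2 there was at -0.018, 1 member was higher in HepG2 than in HEK293 and 7 were higher in Neuro2a than in HippCulture. EIF4G1 in HepG2 was at -0.020 with the size factors of DESeq2 and in its Wald test. Shares of all genes called under these settings are not given beside the counts of members. The cause of these changes was not tested beyond the settings themselves.

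With the replicate block, 14 members had a higher effect in HepG2 than in HEK293, where 2 did without it. In HEK293 the block added 11 calls and lost none of 35, in Neuro2a it added Eif3j1, in HepG2, where numbers did not pair samples, it added EIF4A2, and it changed no other call upon UV of a member. For Neuro2a against HippCulture it gave 17 higher and 12 lower effects in place of 12 and 9. Between cell types the block also paired HepG2 and HippCulture, where numbers were not taken to pair samples. Shares of all genes called with the block are not given. Leaving out 1 library gave 33 to 37 increased and 9 to 11 decreased members in HepG2, 19 to 27 and 6 to 11 in HEK293, 29 to 30 and 11 to 13 in Neuro2a, and 25 to 30 and 5 to 9 in HippCulture, with medians of 0.59 to 0.68, 0.32 to 0.51, 0.50 to 0.60 and 0.28 to 0.36. It gave 1 to 6 higher effects in HepG2 than in HEK293, 1 lower in each fit, and 9 to 14 higher and 6 to 11 lower in Neuro2a than in HippCulture. Members without a call crossed 0 when a library was left out, with ranges of -0.17 to 0.36 for EIF4A2 and -0.43 to 0.45 for EIF5A in HEK293, -0.060 to 0.0030 for Eif4a1, -0.075 to 0.022 for Eif4a2 and -0.34 to 0.076 for Eif5a in Neuro2a, and -0.38 to 0.036 for Eif2ak2, -0.20 to 0.13 for Eif2s3y and -0.15 to 0.092 for Eif4ebp2 in HippCulture.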
